A study of Mus musculus with 8 samples.

Results

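Acetylcholine enzymes, the choline transporter and the muscarinic receptors were described as 9 genes in RNA sequenced in bulk from whole mouse brains. The genes are Chat, Slc5a7, Ache, Bche and Chrm1 to Chrm5. They were taken by gene symbol for their known function, as 9 of 24343 genes (11 of 34535 transcripts) in the deposited table. All 9 were found, and 8 reached 1 FPKM in their mean over the libraries. FPKM counts sequenced fragments per unit of transcript length and per unit of library size, so that levels of different genes can be compared per length.

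The animals were 3 C57BL/6NCrl mice aged 56 to 62 days. Mice 1 and 2 gave 3 libraries each and mouse 3 gave 2. No mutant allele or treatment is given for them, so that all 8 libraries belong to 1 condition. Both sexes were used in the study, but neither the sex of the 3 animals nor the meaning of the library numbers is labelled, and whether libraries of a mouse are separate RNA extractions was not stated. Tests between mice used these libraries as replicates and describe these 3 mice only, because their spread may be technical.

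Choline acetyltransferase joins choline and acetyl-CoA into acetylcholine, a vesicular transporter loads it into synaptic vesicles, cholinesterases split it in the synaptic cleft, and a high-affinity transporter returns the choline to the nerve ending. In the brain the enzyme and both transporters are known from few cells, such as those of the basal forebrain, striatal interneurons and motor nuclei, whereas many neurons carry muscarinic receptors. Chrm1, Chrm3 and Chrm5 encode receptors that act mainly through Gq and phospholipase C, and Chrm2 and Chrm4 encode receptors that act mainly through Gi and lower cyclic AMP. In whole-tissue RNA, fewer cells of a type and less RNA per cell cannot be told apart.

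The bases before the start sites of Chat, Slc18a3, Slc5a7 and Ache are shown because these genes make, load, recover and split the transmitter. Slc18a3, the vesicular acetylcholine transporter, is not among the 9 genes but lies in an intron of Chat. Each line gives the 250 bases before the RefSeq start site, 5′ to 3′ on the gene's strand, on GRCm38.p6. Capitals mark matches on either strand to the searched motifs, which were the TATA box with the letters TATAAA, the CCAAT box, the GC box with the letters GGGCGG, the E-box with the letters CACGTG, the cAMP response element with the letters TGACGTCA and a homeodomain motif with the letters TAATTA, and overlapping GC boxes merge into 1 run of capitals.
Chat: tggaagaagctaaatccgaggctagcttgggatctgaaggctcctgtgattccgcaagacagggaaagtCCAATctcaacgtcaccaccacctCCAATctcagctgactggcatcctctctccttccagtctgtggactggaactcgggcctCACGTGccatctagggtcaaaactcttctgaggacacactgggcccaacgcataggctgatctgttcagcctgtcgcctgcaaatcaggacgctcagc
Slc18a3: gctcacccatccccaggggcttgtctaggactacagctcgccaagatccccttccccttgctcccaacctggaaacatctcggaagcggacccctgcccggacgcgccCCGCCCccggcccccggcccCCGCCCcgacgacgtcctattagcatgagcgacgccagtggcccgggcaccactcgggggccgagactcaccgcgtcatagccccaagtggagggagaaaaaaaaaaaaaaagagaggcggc
Slc5a7: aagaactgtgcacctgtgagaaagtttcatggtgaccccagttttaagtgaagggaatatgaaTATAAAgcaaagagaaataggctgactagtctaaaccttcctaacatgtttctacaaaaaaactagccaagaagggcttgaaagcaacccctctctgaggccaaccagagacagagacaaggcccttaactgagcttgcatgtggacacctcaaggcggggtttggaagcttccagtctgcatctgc
Ache: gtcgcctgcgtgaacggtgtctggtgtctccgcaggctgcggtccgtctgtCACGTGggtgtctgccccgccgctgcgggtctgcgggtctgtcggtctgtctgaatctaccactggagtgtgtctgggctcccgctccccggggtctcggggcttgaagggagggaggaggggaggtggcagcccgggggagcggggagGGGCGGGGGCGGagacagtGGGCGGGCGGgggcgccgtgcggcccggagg

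The Chat window was chr14:32465910-32466159 on the minus strand and held 2 CCAAT boxes and an E-box, which was 98 to 93 bases before the start. The Slc18a3 window, chr14:32464851-32465100 on the same strand, held 2 GC boxes, both as the reverse complement. The Slc5a7 window, chr17:54299035-54299284 on the minus strand, held a TATAAA match 187 to 182 bases before the start, and only 1 CpG. The Ache window, chr5:137288004-137288253 on the plus strand, held 4 GC boxes within the last 50 bases before the start, and an E-box.

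Base composition separated these windows. G and C made up 73.6% of the Ache window and 66% of the Slc18a3 window, against 54.8% for Chat and 45.6% for Slc5a7, with a median of 52.4% over 32851 RefSeq windows of this length. The number of CpG was 25 for Ache, 21 for Slc18a3, 8 for Chat and 1 for Slc5a7, with a median of 6. Among all windows, 32.7% held a GC box, 33.8% a CCAAT box, 12.4% a TATAAA match, 6.02% an E-box, 4.84% TAATTA and 1.55% the cAMP response element. Windows were found for 8 of the 9 genes. The receptor windows differed as widely, from 70% G and C with 3 GC boxes before Chrm4 to 37.6% with none before Chrm5, and the Chrm3 window held none of the 6 motifs.

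Ache had the highest level of the 9 genes and Chrm5 the lowest. The mean over mice was 27.0 ± 2.54 FPKM for Ache and 0.423 ± 0.0741 FPKM for Chrm5 (SD, n = 3 mice here and for each mean ± SD below). Ordered by their means, the genes ran Ache, Chrm1, Chrm3, Chrm4, Chrm2, Slc5a7, Bche, Chat and Chrm5. Neighbours in this order were called apart only where the ranges of their 8 library values did not overlap. By this rule Ache stood above Chrm1, Chrm1 above Chrm3, Chrm2 above Slc5a7, Slc5a7 above Bche and Chat above Chrm5. Ranges overlapped for Chrm3 and Chrm4, for Chrm4 and Chrm2, and for Bche and Chat. Within single libraries Chrm3 was above Chrm4 and Chrm4 above Chrm2 in 8 of 8, whereas Bche was above Chat in 6 of 8.

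**Figure D1:**
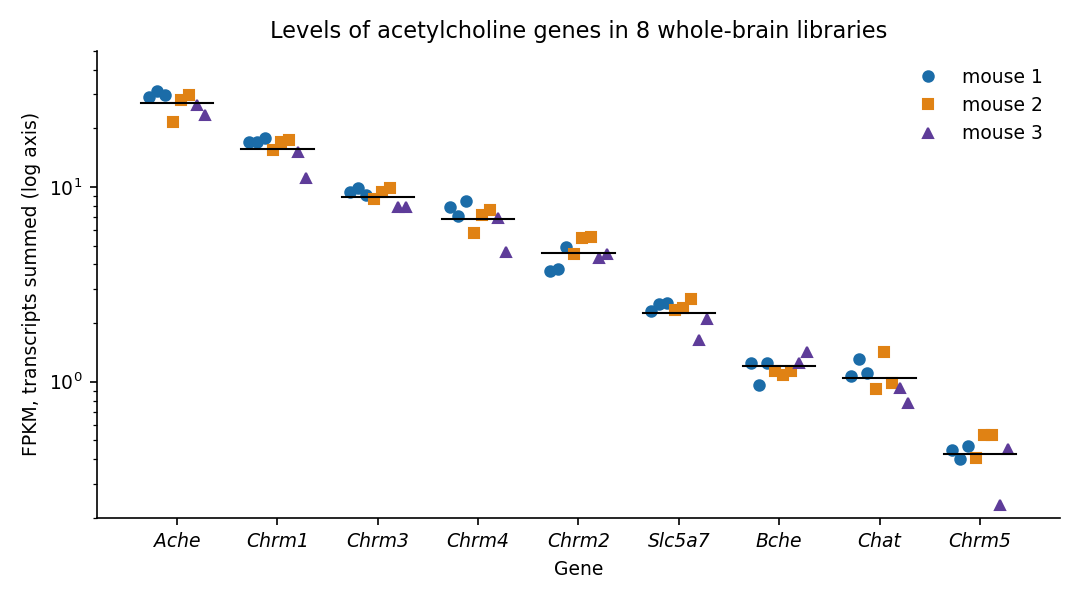
Each point is 1 library, coloured by mouse, and the y axis gives the level in FPKM on a log axis for the 9 genes on the x axis. Black lines mark the mean over the 3 mice, which falls from 27.0 FPKM for Ache to 0.423 FPKM for Chrm5.

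Chat, the choline acetyltransferase gene, was at the lower edge of the genes tested. Its 1 transcript of 2810 nucleotides at chr14:32408203-32465909 had 1.07, 1.30 and 1.10 FPKM in the libraries of mouse 1. It had 0.917, 1.41 and 0.986 FPKM in those of mouse 2, and 0.930 and 0.775 FPKM in those of mouse 3. Positions of transcripts are those of the deposited table, on mm10. The mean was 1.04 ± 0.163 FPKM, and 0.931% of the 12990 genes tested (mean of 1 FPKM or more) were lower. Mouse 3 overlapped mouse 2, whose lowest value lay between those of mouse 3, and both libraries of mouse 3 were below those of mouse 1.

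The deposited bounds show how few fragments lie behind this level. Taken as 2 SD of a fragment count on each side, they imply about 27 to 49 fragments for Chat per library. The bounds carry no stated level, and this reading rests on single-transcript genes in the same table, where 80.7% of 18619 values that imply 0.9 to 10 fragments came out whole within 0.01. These numbers cover counting error only. For Chat the coefficient of variation over the 8 libraries was 19.8%, beside 16.5% from counting at the median fragment number, and the bounds of all 8 libraries shared the values from 1.01 to 1.06 FPKM.

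Slc18a3 had a level close to that of Chat. Its 2414-nucleotide transcript at chr14:32462437-32464850, on the strand of Chat, had 1.33, 1.48 and 1.49 FPKM in mouse 1, 1.00, 1.20 and 1.26 FPKM in mouse 2 and 0.937 and 0.757 FPKM in mouse 3. Both libraries of mouse 3 were below the other 6. The ratio of Chat to Slc18a3 was 0.915, or -0.13 ± 0.17 on the log2 scale, and went from 0.739 to 1.17 among the libraries, with Chat the higher in 2 of 8. An exact sign-flip test over 3 mice cannot go below p = 0.25, so the ratio was not tested. GENCODE M21 gives the genes no shared exonic base.

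Slc5a7, the high-affinity choline transporter, had more RNA per length than both. Its 5180-nucleotide transcript at chr17:54273590-54299034 had 2.31, 2.51 and 2.55 FPKM in mouse 1. It had 2.35, 2.39 and 2.65 FPKM in mouse 2, and 1.63 and 2.09 FPKM in mouse 3. The mean was 2.26 ± 0.347 FPKM, with about 114 to 207 fragments per library. Both libraries of mouse 3 were lower than the other 6, and the bounds of the 8 libraries shared no value. The coefficient of variation over libraries was 14.0%, beside 7.94% from counting.

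**Figure D2:**
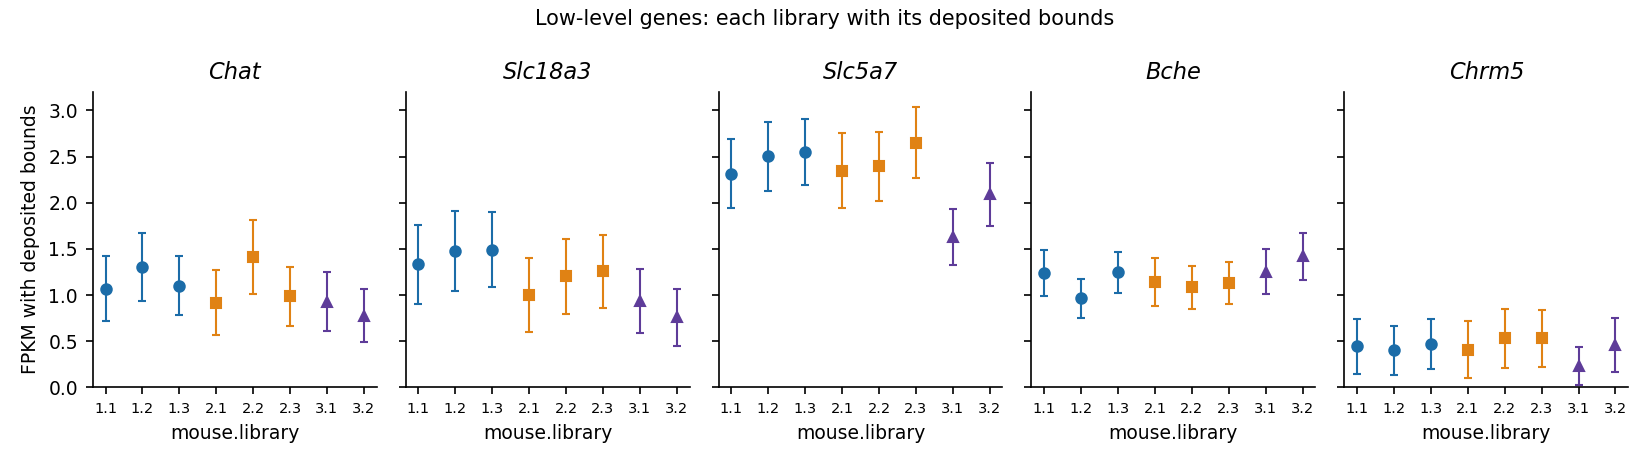
Each point is the FPKM of 1 library, coloured by mouse, and the bars are the bounds deposited with it, for 5 genes with 1 transcript each. For Chat, Bche and Chrm5 a single level crosses all 8 bars, and for Slc18a3 and Slc5a7 none does.

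Acetylcholinesterase RNA was far above butyrylcholinesterase RNA. Ache is the main acetylcholine-splitting enzyme of the brain. Its summed level was 29.0, 31.0 and 29.5 FPKM in mouse 1, 21.7, 27.9 and 29.8 FPKM in mouse 2 and 26.3 and 23.3 FPKM in mouse 3. Library 1 of mouse 2 was the lowest, below both libraries of mouse 3. Of the genes tested, 81.1% were lower.

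Bche encodes an enzyme that splits acetylcholine and other choline esters. Its 6209-nucleotide transcript at chr3:73635809-73708415 had 1.24, 0.964 and 1.25 FPKM in mouse 1, 1.14, 1.08 and 1.13 FPKM in mouse 2 and 1.25 and 1.42 FPKM in mouse 3. The libraries of mouse 3 were the highest, with library 1 of mouse 3 equal to library 3 of mouse 1 at this precision. The mean was 1.20 ± 0.118 FPKM. The bounds of all 8 libraries overlapped between 1.16 and 1.17 FPKM, with 76 to 125 fragments.

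The ratio of Ache to Bche was 22.5, or 4.49 ± 0.25 on the log2 scale. The mice had ratios of 26.0 (mouse 1), 23.5 (mouse 2) and 18.6 (mouse 3), and the ratio went from 16.4 to 32.1 among libraries. With only the higher Ache transcript the log2 ratio was 4.02.

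The table holds 2 Ache transcripts, of 2209 and 2212 nucleotides, at chr5:137288254-137294466 on the plus strand. They differ by 3 bases at the start of the second exon, which GENCODE M21 begins at 137290012 or at 137290009. This is 22 or 25 bases before the start codon at 137290034, so the coding sequence is the same, and lengths rebuilt from these exons equalled the deposited ones. Few fragments can tell the transcripts apart. The 2209-nucleotide transcript had 16.4 to 22.3 FPKM with a mean of 19.5 ± 0.374 FPKM over mice. The 2212-nucleotide transcript had 9.76, 9.86 and 10.2 FPKM in mouse 1, 5.27, 5.61 and 10.3 FPKM in mouse 2 and 6.16 and 5.26 FPKM in mouse 3.

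The longer transcript thus fell into 4 libraries near 10 FPKM and 4 libraries between 5.26 and 6.16 FPKM, with mouse 2 split between them. Its share of the gene was 20.1% to 34.7% among libraries and 27.5 ± 5.33% over mice. The bounds of the low 4 libraries ended at or below 7.44 FPKM and those of the high 4 began at or above 8.12 FPKM. The bounds describe how the authors' program assigned fragments, and the cause of the split was not tested.

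**Figure D3:**
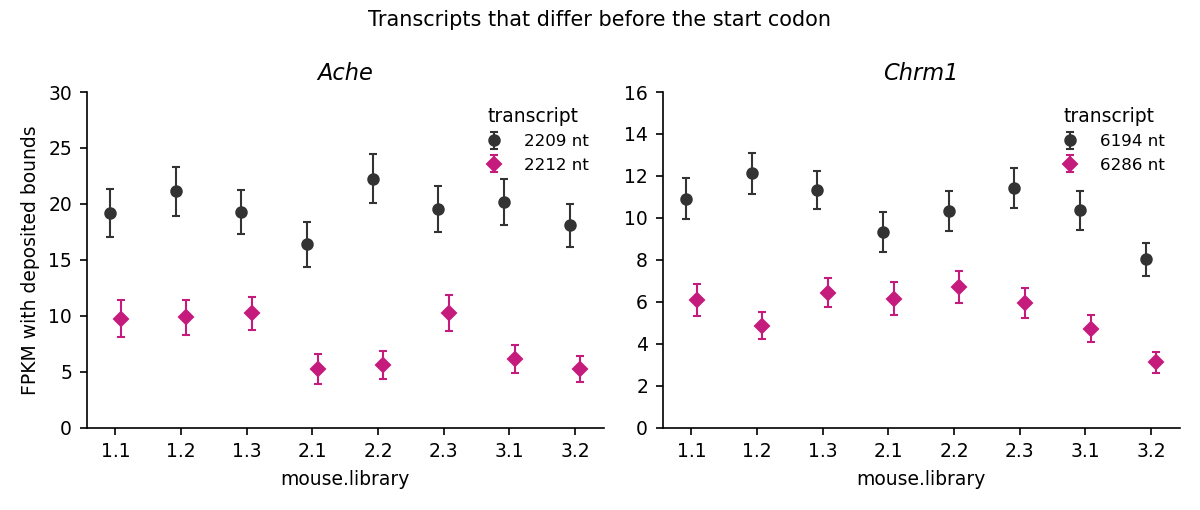
Points give the FPKM of each transcript of Ache (left) and Chrm1 (right) in the 8 libraries on the x axis, named by mouse and library number, with the deposited bounds as bars. The 2212-nucleotide Ache transcript lies near 10 FPKM in 4 libraries and between 5.26 and 6.16 FPKM in the other 4, and the 6286-nucleotide Chrm1 transcript is lowest in library 2 of mouse 3.

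Chrm1 was the highest of the 5 muscarinic receptors and made up 42.9 ± 1.40% of their summed FPKM. Its summed level was 17.0, 17.0 and 17.8 FPKM in mouse 1, 15.5, 17.1 and 17.4 FPKM in mouse 2 and 15.1 and 11.1 FPKM in mouse 3, with a mean of 15.7 ± 2.23 FPKM. Library 2 of mouse 3 was the lowest, and both libraries of mouse 3 were below the other 6. The gene, at chr19:8664005-8683602 on the plus strand, encodes the M1 receptor, known from cortex, hippocampus and striatum.

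The 2 Chrm1 transcripts, of 6194 and 6286 nucleotides, differ by a 92-base exon at chr19:8664909-8665000, 12933 bases before the start codon in the genome. Both encode the same protein. The form without the exon had 10.3 ± 1.13 FPKM and the form with it 5.33 ± 1.24 FPKM. The form with the exon made up 33.7 ± 4.08% of the gene, with 28.0% in library 2 of mouse 3 as the lowest value and 39.8% in library 1 of mouse 2 as the highest. The shares of mouse 1 overlapped those of both other mice, and the shares of mouse 3 were below those of mouse 2.

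Chrm3 encodes the M3 receptor, the other abundant receptor of the Gq class. Its level was 9.46, 9.87 and 9.11 FPKM in mouse 1, 8.70, 9.47 and 9.87 FPKM in mouse 2 and 7.88 and 7.89 FPKM in mouse 3. The mean was 8.90 ± 0.887 FPKM, or 24.6 ± 0.535% of the receptor sum. Both libraries of mouse 3 were lower than the other 6, and the spread over all 8 libraries, 8.92%, was the smallest of the genes with 1 transcript. The gene lies at chr13:9876613-10360803 on the minus strand, and no exon of another gene overlaps its exons in GENCODE M21.

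Chrm5 encodes the M5 receptor, known from dopamine neurons of the midbrain. Its level was 0.445, 0.400 and 0.469 FPKM in mouse 1, 0.407, 0.530 and 0.530 FPKM in mouse 2 and 0.232 and 0.454 FPKM in mouse 3. These values rest on about 5 to 12 fragments per library, and the bounds of all 8 libraries shared the values from 0.223 to 0.440 FPKM. The spread over libraries, 21.9%, was below the 32.8% that counting alone gives at the median fragment number. The mean was below the 1 FPKM needed for the test between mice. The gene lies at chr2:112479072-112480817 on the minus strand.

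Chrm4 was the higher receptor of the Gi class. It encodes the M4 receptor, known from striatal projection neurons. Its level was 7.88, 7.12 and 8.45 FPKM in mouse 1, 5.80, 7.18 and 7.60 FPKM in mouse 2 and 6.95 and 4.64 FPKM in mouse 3, with a mean of 6.82 ± 1.01 FPKM. Library 2 of mouse 3 was again the lowest, but library 1 of mouse 2 was below library 1 of mouse 3. The bounds of the 8 libraries shared no value, and the coefficient of variation over libraries was 17.4%, beside 6.61% from counting.

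Chrm2 encodes the M2 receptor, known as a receptor on cholinergic nerve endings. Its level was 3.69, 3.80 and 4.92 FPKM in mouse 1, 4.53, 5.46 and 5.56 FPKM in mouse 2 and 4.29 and 4.50 FPKM in mouse 3. It was the only one of the 5 receptors whose mean was lowest in mouse 1, at 4.14 FPKM, and the mean over mice was 4.57 ± 0.545 FPKM. Library 3 of mouse 1 overlapped the libraries of mouse 2. Chrm4 lies at chr2:91922189-91929829 and Chrm2 at chr6:36388084-36524774, both on the plus strand.

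Receptors of the Gq class had more RNA than those of the Gi class in every library. Chrm1, Chrm3 and Chrm5 summed to 25.0 ± 3.18 FPKM, and Chrm2 and Chrm4 to 11.4 ± 1.04 FPKM. The ratio was 2.19, or 1.13 ± 0.061 on the log2 scale, and it went from 2.05 to 2.50 among the 8 libraries. The ratios were 2.28 for mouse 1, 2.21 for mouse 2 and 2.10 for mouse 3. With only the higher Chrm1 transcript the log2 ratio was 0.79.

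The receptors kept their order by share in all 3 mice. The summed level of the 5 receptors was 39.1 FPKM in mouse 1, 38.5 FPKM in mouse 2 and 31.5 FPKM in mouse 3. The share of Chrm1 was 44.1%, 43.3% and 41.4% in mice 1, 2 and 3, and that of Chrm3 was 24.3%, 24.3% and 25.2%. Chrm2 had the share with the largest SD, 12.7 ± 1.89%, with 10.5% in mouse 1 and 14.1% in mouse 3. Chrm4 had 18.6 ± 1.17% and Chrm5 1.17 ± 0.0820%.

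**Figure D4:**
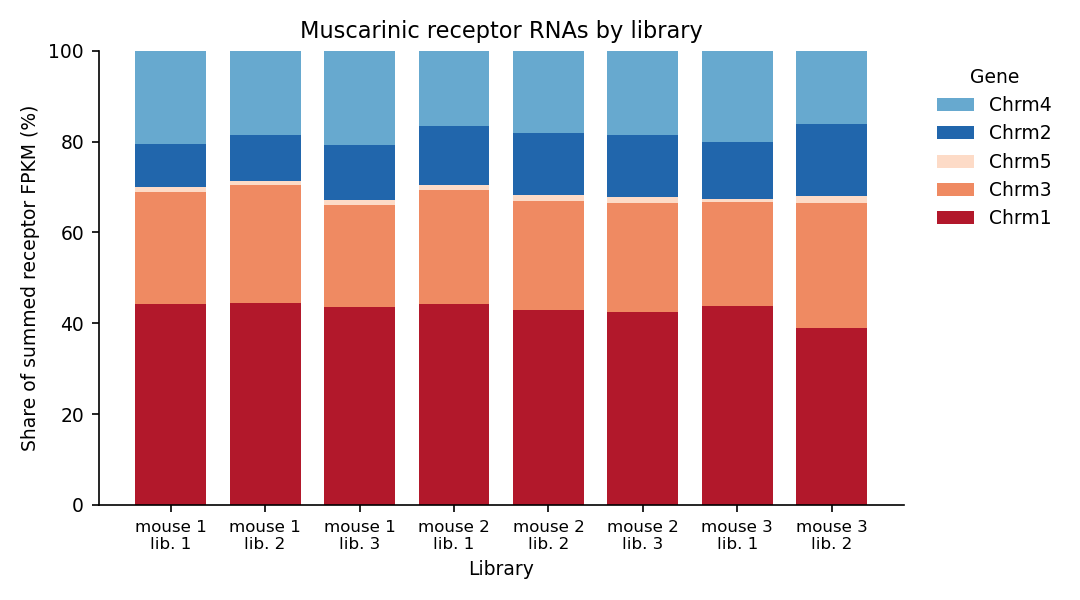
Bars give each receptor's share in percent of the summed FPKM of the 5 muscarinic receptors in each of the 8 libraries on the x axis. Red tones are Chrm1, Chrm3 and Chrm5 and blue tones Chrm2 and Chrm4; Chrm1 takes between 38.9% and 44.5% in every library.

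None of the 8 genes tested differed between the 3 mice in FPKM, beside 25.5% of all genes tested (3309 of 12990). Values were compared as log2(FPKM + 1) by the moderated F-test of limma, and called at an adjusted p under 0.05. At an unadjusted p under 0.05 there were 3 of the 8, Chrm1, Slc5a7 and Chrm3, beside 5300 of all 12990 genes tested, a similar share. Adjusted p was 0.0831 for Chrm1, 0.0905 for Slc5a7, 0.109 for Chrm3, 0.194 for Chrm2 and 0.198 for Chrm4, and from 0.292 to 0.430 for Ache, Chat and Bche. A p that misses the threshold does not show that the levels were equal. The coefficient of variation between mice had a median of 13.1% over the 8 genes and 12.3% over all genes tested.

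Mouse 3 had the lowest mean for every gene but Bche and Chrm2. Against the mean of mice 1 and 2, the difference in mouse 3 was -0.36 for Chrm1, -0.31 for Chrm4, -0.28 for Slc5a7, -0.23 for Chrm3, -0.20 for Chat, -0.17 for Ache, -0.057 for Chrm2 and 0.13 for Bche (log2 of FPKM + 1). The median was -0.21 over the 8 genes and 0.018 over all genes tested. Both libraries of mouse 3 were below the other 6 for 3 of the 8 genes and above them for 1, beside 21.8% and 26.5% of all genes tested.

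The calls depended on how the libraries were scaled. Summed FPKM differed between libraries, from 295541 to 409889, and both libraries of mouse 3 had the highest sums. When values were rescaled to the same total in each library (TPM), the median difference of all genes in mouse 3 moved to -0.26, and 13.0% of the called genes were higher in mouse 3 instead of 55.3%. On that scale 7 of the 8 genes were called, each lower in mouse 3, beside 42.4% of all genes. Adjusted p (limma) was from 0.00600 for Chrm3 to 0.0276 for Chrm4. Relative to the median of all genes, the 8 genes had a median difference of -0.23 in FPKM and -0.26 in TPM. The difference of Bche turned from 0.13 to -0.048 and was not called.

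Libraries also differed in their trend with transcript length. Deviations from the mean level rose with length in mice 1 and 2 (Spearman's rho from 0.18 to 0.50 across genes, which are not independent) and fell with it in mouse 3 (-0.36 and -0.57). After this trend was removed, 1 of the 8 genes was called, Chrm2, beside 20.4% of all genes (limma, adjusted p = 0.0386). In this fit Chrm2 was higher in mouse 2, at 2.69 in log2(FPKM + 1), than in mice 1 and 3, both at 2.34. The difference of mouse 3 was -0.13 for Slc5a7 and 0.32 for Bche. The range of adjusted p over all alternatives of Chrm2 was 0.0269 to 0.384.

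**Figure D5:**
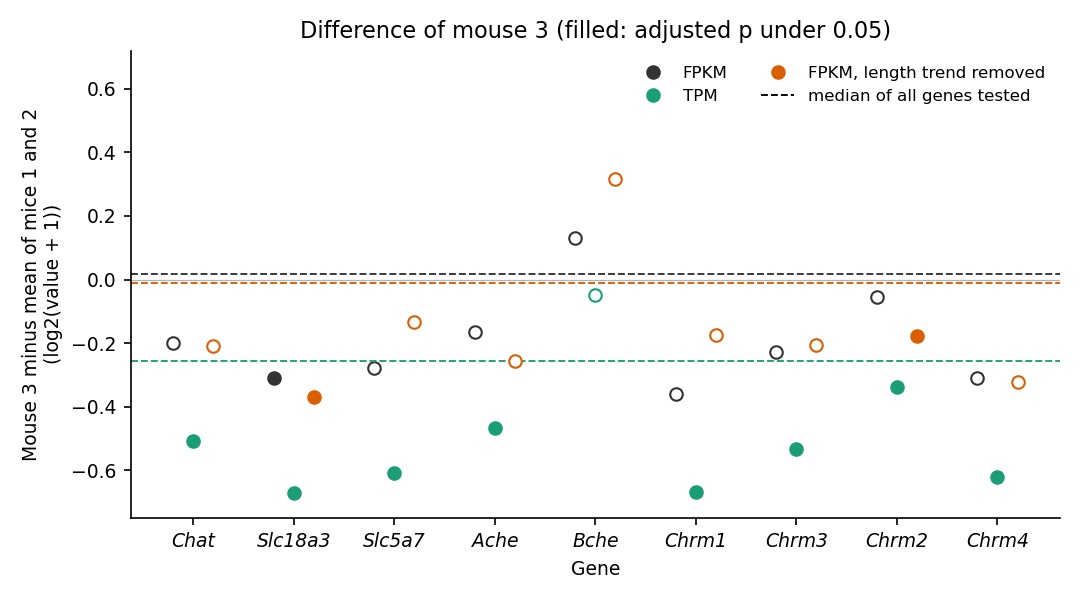
The y axis gives mouse 3 minus the mean of mice 1 and 2 on the log2(value + 1) scale for 8 of the genes and Slc18a3, with FPKM, with TPM and with FPKM after removal of the length trend. Dashed lines are the medians of all genes tested, and filled points have an adjusted p under 0.05; with TPM every gene but Bche is filled, and with FPKM only Slc18a3 is.

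The differences of Chrm1 and Chrm4 depended on library 2 of mouse 3. Without it the difference of mouse 3 was -0.16 for Chrm1 and -0.061 for Chrm4. Without library 1 of mouse 3, the difference of mouse 3 was -0.56 for Chrm1 and -0.56 for Chrm4. Its median was -0.24 over the 8 genes and 0.019 over all genes (log2 of FPKM + 1). In these fits the remaining library of mouse 3 is assumed to vary like those of the other mice. Over all alternatives the adjusted p went from 0.0104 to 0.423 for Chrm1 and from 0.0276 to 0.516 for Chrm4.

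Markers of cell types also moved with mouse 3. Among 12 brain markers, 8 differed between the mice in FPKM, beside 25.5% of all genes. Rbfox3, Gad1 and Gad2 of neurons were lower in mouse 3, and among those called higher were Mbp, Aqp4, Slc1a2 and Cx3cr1 of glia. Not called were Snap25 and Slc17a7 of neurons, Pdgfra of glia and Cldn5. Their differences in mouse 3 were -0.12, -0.22, -0.055 and 0.68 (log2 of FPKM + 1). With TPM 7 were called, beside 42.4% of all genes, 1 higher in mouse 3 and 6 lower. The lower ones included Snap25, Slc17a7 and Pdgfra. Aqp4, Slc1a2 and Cx3cr1 were not called (limma, adjusted p = 0.406, 0.285 and 0.747). Gad1 had 134, 125 and 84.4 FPKM in mice 1, 2 and 3, and Mbp had 1288, 1322 and 3166 FPKM. The summed level of the 12 was 3767 to 3847 FPKM in the libraries of mouse 1, 3656 to 3901 FPKM in those of mouse 2 and 5320 and 6265 FPKM in those of mouse 3. Mbp carried most of this rise, and without it, a split made after its values were seen, the means of mice 1, 2 and 3 were 2529.8, 2464 and 2626 FPKM. Without library 2 of mouse 3, Mbp and Slc1a2 were still called. Among 6 striatal markers, Ppp1r1b was called and lower in mouse 3, though under only 6 of 15 alternatives, and their sum was 183, 168 and 144 FPKM in mice 1, 2 and 3. Blood markers summed to 618, 612 and 849 FPKM, choroid plexus markers to 534, 431 and 500.3 FPKM, pituitary markers to 2.41, 2.60 and 2.30 FPKM and skeletal muscle markers to 2.52, 6.69 and 4.80 FPKM. Hba-a1, with a mean of 464 FPKM, made up most of the blood sum, and Ttr, with 472 FPKM, most of the choroid plexus sum. Of 5 blood markers Hbb-bt was called and higher in mouse 3. Of 5 choroid plexus markers Kl was called and lower. No marker of these lists was at 0 in every library, and their part in the differences of the 9 genes was not tested.

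Genes around choline supply, vesicles and enzyme anchors gave 2 calls among 15 tested of 18, beside calls for 25.5% of all genes. With TPM 6 were called, beside 42.4% of all genes, 1 higher in mouse 3 and 5 lower. Slc18a3 was lower in mouse 3, with a difference of -0.31 in log2(FPKM + 1) (limma, adjusted p = 0.0328). The added 1 shrinks differences at such low levels, and with 0.1 added instead the difference was -0.55. Chpt1, a choline phosphotransferase of phosphatidylcholine synthesis, was higher, with 19.3, 20.6 and 36.2 FPKM in mice 1, 2 and 3 (adjusted p = 0.00885). The median difference of the 15 genes was -0.018, equal in size and opposite in sign to that of all genes. Prima1, which anchors acetylcholinesterase in brain membranes, had 2.54 ± 0.642 FPKM, and Colq, the collagen tail of the muscle enzyme, had 0.543 ± 0.0794 FPKM. Slc44a1, a choline transporter of low affinity, had 27.1 ± 3.66 FPKM and Acly, an enzyme that makes acetyl-CoA, had 37.5 ± 4.27 FPKM.

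The call of Slc18a3 was not firm. It was called under 7 of 15 alternatives, with adjusted p from 0.00457 to 0.151. It was lost without library 1, 2 or 3 of mouse 1 (0.0641, 0.0945 and 0.0991), without library 2 of mouse 2 (0.0578) and without library 2 of mouse 3 (0.151, limma). The call was also lost with an intensity trend (0.0716), with the library number as a replicate block (0.0730) and with the highest transcript of each gene (0.0516, limma). Slc18a3 was lower in mouse 3 in every one of these fits. Chpt1 kept its call in 13 of 15 alternatives and lost it without library 2 of mouse 3 (0.0676) and with its highest transcript alone (0.238).

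Regulators and growth factor receptors of cholinergic neurons were mostly under 1 FPKM. Of 9 such genes 2 were tested. Ngfr, the low-affinity neurotrophin receptor of basal forebrain cholinergic neurons, had 1.35, 1.20 and 0.660 FPKM in mice 1, 2 and 3 and was called (limma, adjusted p = 0.0179), except without library 2 of mouse 3 (0.132). Isl1 had 1.17 ± 0.131 FPKM and was not called. Lhx8 had 0.648 ± 0.242 FPKM and Nkx2-1 0.723 ± 0.104 FPKM, and Mnx1, known from motor neurons of the spinal cord, was listed at 0 in all 8 libraries.

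Genes that act downstream of muscarinic receptors gave 9 calls among 22 tested of 23, 8 of them lower in mouse 3, beside calls for 25.5% of all genes. Lower were Gnaq, Gnao1, Plcb1, Plcb4, Kcnq5, Kcnj3, Kcnj6 and Kcnj9, and higher was Gnai2. Kcnj3, a subunit of potassium channels that Gi-coupled receptors open, had 26.7, 25.2 and 17.9 FPKM in mice 1, 2 and 3 (limma, adjusted p = 0.00780). Plcb1, a phospholipase C that Gq activates, had 33.2, 34.6 and 23.1 FPKM (limma, adjusted p = 0.0116). The median difference of the 22 genes was -0.18, beside 0.018 over all genes. Without library 2 of mouse 3, Kcnj3 was the 1 gene of the list still called, and leaving out other libraries left 4 to 11 calls. With TPM 12 of the 22 were called, beside 42.4% of all genes. All 12 were lower in mouse 3, as were most genes called with TPM (13.0% were higher). Gnai2 was not among the 12. After removal of the length trend 13 were called, beside 20.4% of all genes, with 6 higher in mouse 3 and 7 lower. The balance of directions thus depended on the scaling.

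For each of the 8 genes the gene with the most similar profile over the 8 libraries was named, by the smallest root mean square difference of centred log2(FPKM + 1). For Chrm1 this was Atp8b2, at 0.014, the closest match. For Chrm3 it was Aggf1, at 0.022. For Ache it was Tubb2a, at 0.025. The other matches were farther off. Slc5a7 had Socs6 at 0.030, Bche had N4bp2l2 at 0.032 and Chat had Lrrc8d at 0.033. Chrm4 had Sgsm1 at 0.052 and Chrm2 had Eda at 0.075. Each match was taken from 12990 genes over libraries of only 3 mice. The distances are not scaled to a gene's own spread, which in the same measure went from 0.085 for Bche to 0.22 for Chrm4. They therefore do not rank how alike the matched profiles are between the genes. Among the 8 genes themselves, Slc5a7 and Chrm3 were nearest to each other (0.078), as were Chrm1 and Chrm4 (0.087).

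Reads of genes on the opposite strand could not be told apart where exons overlap, since the strand setting is not given. In GENCODE M21 an opposite-strand gene shares 98 of 4623 exonic bases with Ache, 142 of 6053 with Chrm2 and 329 of 6487 with Chrm1. No such overlap was found for Chat, Slc5a7, Bche or Chrm3, and the annotation gives shorter forms of Chrm4 and Chrm5 than the deposited table, so that theirs was not examined.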

How the data were processed

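Whole-brain RNA of 3 mice was sequenced by the study as 8 libraries, made with a Kapa mRNA HyperPrep kit from RNA of high integrity. The authors deposited FPKM values for RefSeq transcripts with lower and upper bounds, estimated with Cufflinks after TopHat alignment to mm10 according to the submitters' processing notes. The deposited coverage is a signal, the mean read depth per base of a transcript, and transcript length is in nucleotides. Versions and the strand setting are not given in the sources used here.

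FPKM were summed over the transcripts of a gene, averaged over the libraries of a mouse and then over mice. Coverage times length gave 1.31 to 2.02 gigabases on transcripts per library. Values with a failed status (8 values, in libraries 1 and 2 of mouse 2) included none of the 9 genes. Mice were compared with limma 3.58.1 in R 4.3.3, by a moderated F-test on log2(FPKM + 1) over the 12990 genes whose mean reached 1 FPKM. The Benjamini-Hochberg adjusted p was called under 0.05. The test was checked on simulated data. Planned count tests were not used because the values are FPKM.

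Members and lists were chosen with earlier results of these data known. The genes named were the 9 members, the gene with the most similar profile to each, 3 pathway lists (choline supply, regulators of cholinergic neurons, muscarinic signalling) and markers of brain cell types, striatum, blood, choroid plexus, pituitary and skeletal muscle. Grk2 and Grk3 were found under older symbols. Some genes of these lists are counted but not reported here by name. Same-numbered libraries of different mice had deviations correlated by 0.0014 to 0.11, so the numbers were not taken to pair the samples.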

Additional observations from a re-analysis of the deposited data

Results flagged for a closer look

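Of 20 measures compared over the 8 libraries, 3 had a library whose gap to its nearest neighbour passed Dixon's 95% limit for 8 values. Chance passes it in about 1 of 20 groups of independent values, but these libraries came from 3 mice, and some measures share a gene. Chrm1 had 11.1 FPKM in library 2 of mouse 3, and the next lowest library had 15.1 FPKM. The share of Chrm1 among the 5 receptors was 38.9% in the same library, with 42.5% as the next lowest. Chrm5 had 0.232 FPKM in library 1 of mouse 3, with 0.400 FPKM next, on about 5 fragments.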

How the results depend on the processing

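The mean level of each of the 9 genes moved by less than its SD between mice in all 72 fits that left out 1 library, and in 34 of 45 other settings. The exceptions were TPM, a different scale, and the highest transcript alone for Ache (19.5 FPKM) and Chrm1 (10.3 FPKM). For genes with 1 transcript the highest transcript is the whole gene, so that setting could not move them. The log2 ratio of Gq to Gi receptors fell to 0.79 and that of Ache to Bche to 4.02 with the highest transcript alone, since the other transcript is then left out, and no other setting moved a ratio by its SD. The number of genes called was 5506 with TPM, 2175 with the highest transcript and 126 to 3868 when 1 library was left out (126 without library 2 of mouse 3). Leaving out library 1, 2 or 3 of mouse 1 gave 1905, 1777 and 1675. Of the 8 genes tested, 7 were called with TPM, beside 42.4% of all genes, and 1 without the length trend, beside 20.4%. None was called when a library of mouse 1 or 2 was left out. Leaving out library 1 of mouse 3 moved the differences of Chrm1 and Chrm4 to -0.56, and leaving out library 2 moved them to -0.16 and -0.061. The library number as a replicate block gave 3000 calls among 12990 genes (67.8% higher in mouse 3) and 0 of the 8 genes tested. Since the numbers do not pair the samples, this is a check only. The difference of mouse 3 reversed for Bche with TPM (-0.048) and for Chrm2 with the replicate block (0.019). A pseudocount of 0.1 and an intensity trend called none of the 8 genes tested, and no filter called none of the 9. Library numbers of unknown meaning and 27 to 49 fragments for Chat and 5 to 12 for Chrm5 limit what could be seen between mice.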
